A study of Homo sapiens with 6 samples.

Results

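The regions described here are stretches of the human genome with a MYT1L peak at an end of a protein-coding gene that were found in only 1 or only 2 of 4 MYT1L libraries. The members were chosen by measured values: the peaks of the 4 MYT1L lists on chromosomes 1 to 22, X and Y were joined where they overlapped by at least 1 bp, and a region was kept if exactly 1 or exactly 2 lists had a peak in it and no IgG peak overlapped it. It also had to lie no further than 1000 bp from the start or 3′ end of a protein-coding gene of the RefSeq GRCh38.p14 table. Of 49028 joined regions, 6728 met the rule, 3979 of them with a peak in 1 library and 2749 with peaks in 2 libraries. They are called 1-library and 2-library members below and are kept apart.

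The study mapped MYT1L by CUT&RUN, in which an antibody directs a nuclease to a chromatin protein and the DNA cut free around it is sequenced. All 6 libraries came from H1, a line of human embryonic stem cells, labelled wild type and taken at day 30: 4 used an antibody to MYT1L and 2 used IgG, which binds no particular chromatin protein, as the negative control. The design text calls the cells cortical interneurons made from stem cells, while the cell type entered for each sample is embryonic stem cells, and peak lists hold no expression by which markers could be checked. Nothing in the labels says whether the libraries were separate cultures, so the spread between them may be technical, and H1 is a single line. MYT1L replicate numbers follow the sample titles, and the peak names inside those lists carry numbers that are 1 higher.

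MYT1L is a zinc-finger transcription factor of the MYT1 family made mainly in neurons. It binds a short DNA core with the letters AAGTT, recruits the SIN3 corepressor and histone deacetylases, and is known for keeping genes of other lineages and of the Notch pathway low while neurons form. Most gene starts in human DNA lie in CpG islands, stretches in which the dinucleotide CpG is kept.

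The promoters of 10 members are printed first because the results turn on them: the strongest members that cover a gene start in each class, and members at Notch pathway genes. Each window runs from 250 bases before to 50 bases after a RefSeq gene start, 300 bases in all, from the GRCh38.p14 table, 5′ to 3′ on the gene's strand. Capitals mark the core AAGTT or its reverse complement AACTT. GOLGA3, KLHL32 and RSRC2 had the highest mean fold among the 2-library members that cover a start and have a window. Their windows lie at chr12:132829032-132829331 (minus strand), chr6:96897833-96898132 (plus) and chr12:122526887-122527186 (minus).
GOLGA3: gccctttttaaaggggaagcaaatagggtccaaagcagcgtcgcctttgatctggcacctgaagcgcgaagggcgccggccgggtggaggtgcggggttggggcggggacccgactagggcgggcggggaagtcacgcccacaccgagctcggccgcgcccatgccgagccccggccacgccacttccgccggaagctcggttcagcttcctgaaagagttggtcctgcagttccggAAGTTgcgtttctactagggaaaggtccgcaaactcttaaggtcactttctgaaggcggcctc
KLHL32: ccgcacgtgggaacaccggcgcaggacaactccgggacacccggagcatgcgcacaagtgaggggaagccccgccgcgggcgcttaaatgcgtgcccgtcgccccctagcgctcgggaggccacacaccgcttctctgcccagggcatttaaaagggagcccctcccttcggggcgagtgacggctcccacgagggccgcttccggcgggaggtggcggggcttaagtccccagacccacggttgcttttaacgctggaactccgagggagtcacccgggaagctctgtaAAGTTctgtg
RSRC2: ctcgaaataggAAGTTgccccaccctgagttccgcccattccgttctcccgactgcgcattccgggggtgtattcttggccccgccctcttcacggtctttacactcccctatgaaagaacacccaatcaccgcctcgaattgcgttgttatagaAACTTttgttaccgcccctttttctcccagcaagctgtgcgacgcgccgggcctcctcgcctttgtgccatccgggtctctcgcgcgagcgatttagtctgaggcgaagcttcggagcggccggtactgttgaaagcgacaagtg
All 3 held the core, RSRC2 at 2 places. Over all members the core stood in 25.2% of 1-library and 25.7% of 2-library windows, against 29.4% of all promoter windows. The CpG observed over expected ratios of these 3 were 0.894, 0.870 and 1.12. That ratio divides the CpG count by the count that the window's C and G content would give without order, and its median over 15842 protein-coding promoters in the table was 0.761.

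WDR36, MRPS21 and NCOA4 had the highest fold among the 1-library members that cover a start, all 3 from replicate 4. Their windows lie at chr5:111092098-111092397 (plus), chr1:150293611-150293910 (plus) and chr10:46030574-46030873 (minus).
WDR36: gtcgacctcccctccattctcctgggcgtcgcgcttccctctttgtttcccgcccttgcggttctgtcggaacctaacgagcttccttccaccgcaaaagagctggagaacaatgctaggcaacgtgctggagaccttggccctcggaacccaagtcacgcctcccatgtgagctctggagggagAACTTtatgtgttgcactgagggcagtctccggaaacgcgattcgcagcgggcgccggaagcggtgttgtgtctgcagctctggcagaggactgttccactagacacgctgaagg
MRPS21: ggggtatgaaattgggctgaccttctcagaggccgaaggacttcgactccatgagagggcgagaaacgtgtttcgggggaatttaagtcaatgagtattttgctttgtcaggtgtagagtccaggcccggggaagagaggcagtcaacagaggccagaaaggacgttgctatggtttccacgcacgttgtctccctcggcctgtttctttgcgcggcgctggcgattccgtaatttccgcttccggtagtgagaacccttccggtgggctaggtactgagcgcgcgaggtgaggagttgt
NCOA4: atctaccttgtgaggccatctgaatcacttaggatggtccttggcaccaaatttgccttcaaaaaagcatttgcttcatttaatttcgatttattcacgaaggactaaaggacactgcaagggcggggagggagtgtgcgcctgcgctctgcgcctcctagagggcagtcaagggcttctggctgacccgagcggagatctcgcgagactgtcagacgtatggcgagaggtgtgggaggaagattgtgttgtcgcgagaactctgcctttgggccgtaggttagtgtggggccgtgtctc
WDR36 held the core at 1 place and the other two held it at 0. A missing match says only that these letters are not in this window. The summits, the highest bases of these peaks, lay outside the windows, 109, 166 and 144 bp inside the gene. The windows shared 182, 130 and 120 of their 300 bases with the member. At GOLGA3 and RSRC2 the strongest summit lay 102 and 107 bp inside the gene. At KLHL32 it lay 468 bp before the start, and these summits were also outside the windows.

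At Notch pathway genes the windows shown are those of JAG1 (chr20:10673950-10674249, minus), a Notch ligand, APH1A (chr1:150268967-150269266, minus), a subunit of the gamma-secretase that cleaves Notch, and the effector repressors HES4 (chr1:1000048-1000347, minus) and HES5 (chr1:2530214-2530513, minus).
JAG1: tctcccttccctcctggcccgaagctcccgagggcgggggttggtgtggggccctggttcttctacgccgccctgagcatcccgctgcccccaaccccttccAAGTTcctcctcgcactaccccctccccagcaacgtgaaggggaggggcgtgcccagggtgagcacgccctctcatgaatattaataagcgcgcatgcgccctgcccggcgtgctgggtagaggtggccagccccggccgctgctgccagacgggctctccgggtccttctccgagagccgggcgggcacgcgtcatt
APH1A: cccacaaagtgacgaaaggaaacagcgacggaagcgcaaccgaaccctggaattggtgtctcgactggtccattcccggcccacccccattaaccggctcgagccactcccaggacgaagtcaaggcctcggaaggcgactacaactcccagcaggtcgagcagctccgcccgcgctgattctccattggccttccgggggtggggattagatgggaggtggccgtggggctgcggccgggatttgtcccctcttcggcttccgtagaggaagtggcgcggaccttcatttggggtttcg
HES4: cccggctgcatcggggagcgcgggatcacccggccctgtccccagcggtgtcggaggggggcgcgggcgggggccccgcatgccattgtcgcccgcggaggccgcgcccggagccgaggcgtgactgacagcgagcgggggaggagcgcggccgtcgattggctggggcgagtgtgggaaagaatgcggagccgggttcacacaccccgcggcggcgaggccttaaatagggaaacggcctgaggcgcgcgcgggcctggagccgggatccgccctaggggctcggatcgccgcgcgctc
HES5: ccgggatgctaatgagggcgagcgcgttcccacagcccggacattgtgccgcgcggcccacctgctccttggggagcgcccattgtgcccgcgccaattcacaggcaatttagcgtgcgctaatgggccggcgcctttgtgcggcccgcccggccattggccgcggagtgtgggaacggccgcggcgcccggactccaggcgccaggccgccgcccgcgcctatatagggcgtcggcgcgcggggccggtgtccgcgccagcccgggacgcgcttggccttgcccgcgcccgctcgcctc
JAG1, a 2-library member, held the core at 1 place, and the other three, 1-library members of replicate 4, held it at 0. Their CpG ratios ran from 0.687 at JAG1 to 1.09 at HES5.

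How often a region lay at a gene end depended on whether replicate 4 had a peak in it. Among regions found in 1 library, 7.53% of those of replicate 1 lay at a gene end (757 of 10054; 95% Wilson interval 7.03 to 8.06), 8.34% of those of replicate 2 (198 of 2374; 7.29 to 9.52) and 6.78% of those of replicate 3 (321 of 4733; 6.10 to 7.53). In replicate 4 the share was 24.1% (2703 of 11229; 23.3 to 24.9). The first 3 libraries were thus close to each other and replicate 4 stood well above them. By the rule, a region of replicates 1 to 3 counts here only if replicate 4 has no peak in it. With replicate 4 left out and regions redefined over the others, the shares of replicates 1, 2 and 3 were 18.1%, 17.5% and 19.0%. Intervals here cover counting error only.

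Pairs of libraries fell apart in the same way. Of regions shared by replicates 1 and 2 alone, 11.0% lay at a gene end (62 of 565), of those shared by 1 and 3, 9.59% (99 of 1032), and of those shared by 2 and 3, 9.005% (19 of 211). With replicate 4 as a partner the shares were 39.0% for replicate 1 (1505 of 3856), 36.9% for replicate 2 (254 of 688) and 44.5% for replicate 3 (810 of 1819). No pair without replicate 4 reached the lowest pair with it, and the intervals of the 2 kinds of pair do not overlap.

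**Figure D1:**
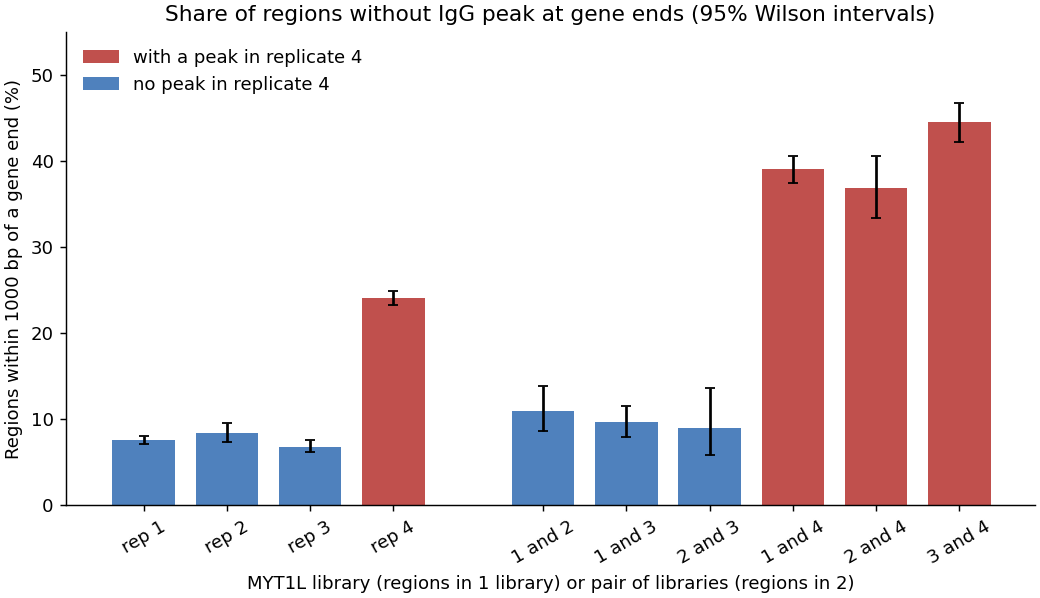
Share of regions without an IgG peak that lay within 1000 bp of a gene end (y axis, percent), for regions in 1 MYT1L library and for regions in each pair (x axis); bars are shares and whiskers 95% Wilson intervals. The 4 bars with a peak in replicate 4 sit between 24.1% and 44.5%, and the 6 others between 6.78% and 11.0%.

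Replicate 4 therefore held 67.9% of the 1-library members but 39.6% of all 1-library regions, and 93.5% of the 2-library members but 77.9% of all 2-library regions. Without it 1276 1-library and 180 2-library members are left. Over all libraries 14.0% of the 1-library regions (3979 of 28390) and 33.6% of the 2-library regions (2749 of 8171) lay at a gene end, against 54.2% of regions in 3 libraries and 68.4% of regions in 4. Peaks of the IgG control measured the same way lay at a gene end in 13.0% of cases in replicate 1 (127 of 976; interval 11.1 to 15.3) and 30.7% in replicate 2 (306 of 998; 27.9 to 33.6). The IgG share in replicate 1 is above those of the 1-library regions of MYT1L replicates 1 to 3, and that in replicate 2 is above the 24.1% of MYT1L replicate 4.

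Background recovered from the lists served as an estimate of depth, since total reads are unknown. The lists held 27926, 12310, 18966 and 30086 MYT1L peaks, and the genome-wide background recovered from them was 1.18, 0.421, 1.051 and 0.895 fragments, so replicates 1 and 3 had a higher background than replicate 4. With pileups thinned to the background of replicate 4, 79.5% of the 1-library members of replicate 1 and 91.5% of those of replicate 3 were expected to pass the weakest deposited peak of replicate 4. Replicate 2 had the lowest recovered background. Thinned to it, 22.1% of the members of replicate 1, 29.4% of those of replicate 3 and 58.0% of those of replicate 4 were expected to pass. These are estimates from the formulas of the peak caller. They start from pileups of members chosen for a peak in that library alone, so the shares expected to pass may be too high. What set replicate 4 apart was not tested.

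Most members lay at the start of a gene, not at its 3′ end, which the choice of members did not use. Strand was known for the genes of 3080 1-library members, of which 82.2% (2532) were nearest to a start, and of 2190 2-library members, of which 93.9% (2056) were. In the 4 replicates in order the share at starts was 64.1%, 68.9%, 71.5% and 89.1% among 1-library members and 92.9%, 91.0%, 93.2% and 95.1% among 2-library members. The 2-library share was the higher in 4 of 4 libraries, by 19.6 percentage points ± 9.65 (SD, n = 4). An exact sign-flip permutation test over the 4 libraries, two-sided, gave p = 0.125, the smallest that 4 libraries allow, so the design cannot reach 0.05, and adjusted over the 2 such tests made it was also 0.125. A 2-library member counts in both of its libraries, so the 4 differences are not independent. Where a start and a 3′ end were equally near, the start was taken, and such ties were not counted. A member that covers both is a tie, and 2-library members were the wider (median 605 against 314 bp). The tie rule can therefore raise the difference.

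The difference was smaller where replicate 4 was no partner, and 8.63 percentage points with that library left out and members redefined over the other 3. With 2-library members of replicates 1 to 3 alone it was 5.59 percentage points ± 4.39 (SD, n = 3; exact sign-flip permutation p = 0.25, the smallest possible). Among 2-library members without a peak in replicate 4, 73.8% of 130 lay at starts, against 95.1% of 2060 with one. Regions in 3 and in 4 libraries lay at starts in 98.1% and 98.8% of cases, and IgG peaks in 90.2% and 98.1%. At 3′ ends lay 548 1-library and 134 2-library members, and for 899 and 559 members the table gave no strand.

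Within starts, the summit, the base of highest pileup, most often lay just inside the gene. Among 1-library members of replicate 4 the fullest 100-bp bin was 100 to 200 bp downstream of the start, with 18.6% of 1899 summits, and among 2-library members with replicate 4 it was the same bin, with 21.5% of 1960. For members of replicates 1 to 3 the fullest bin was the first 100 bp, with 10.4% of 633 among 1-library members and 14.6% of 96 among 2-library members. The first 300 bp of the gene took 40.1% and 47.1% of the summits in the sets with replicate 4, and 26.5% and 31.3% in the sets without it.

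**Figure D2:**
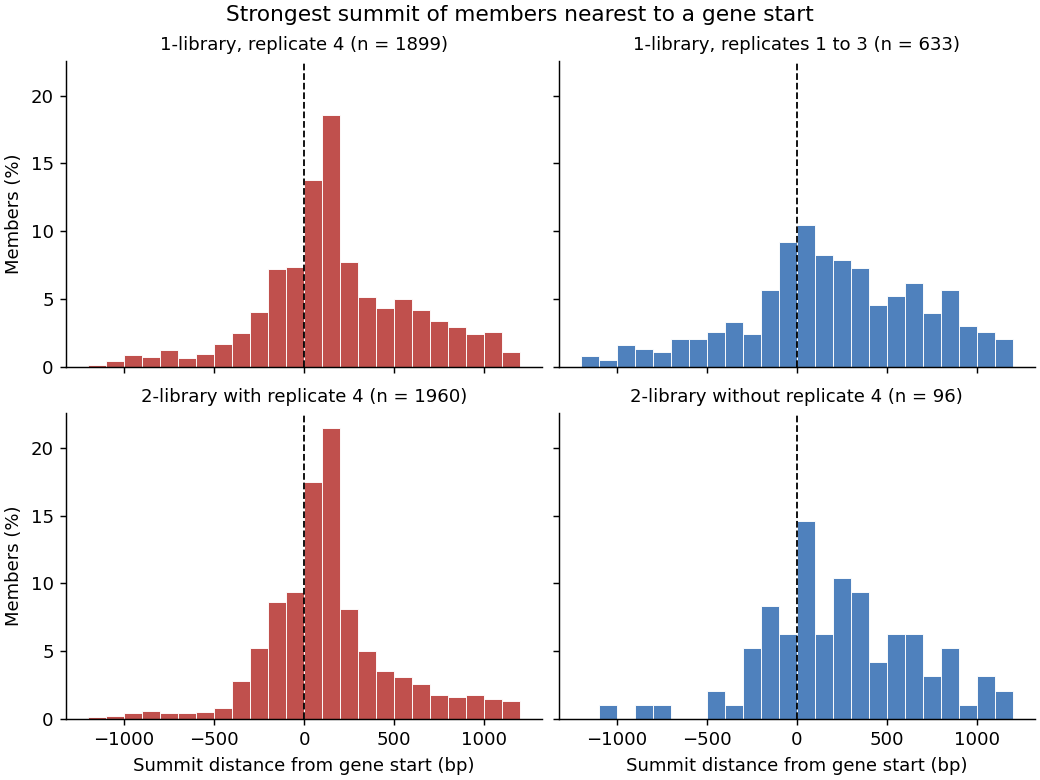
Distance of the strongest summit from the nearest gene start (x axis, bp, positive inside the gene) for members nearest to a start, as the share of each set (y axis, percent, bins of 100 bp). Sets with replicate 4 have their fullest bin at 100 to 200 bp (18.6% and 21.5%), and sets without it are flatter (10.4% and 14.6% in their fullest bin).

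Members of 2 libraries were also wider and nearer to the gene end. Their median width was 605 bp against 314 bp for 1-library members, and 67.8% of them (1865) covered the end itself, against 33.3% (1325). By replicate 18.2%, 18.2%, 19.9% and 40.2% of the 1-library members covered the end. Joining peaks of several libraries widens a region, so width and cover follow in part from the rule. Regions in 3 and 4 libraries had median widths of 791 and 926 bp.

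The CpG content of the promoter windows, which the rule did not use, was higher at 2-library than at 1-library members. The median CpG observed over expected was 0.716, 0.668, 0.699 and 0.809 for the 1-library members of replicates 1 to 4, and 0.822, 0.808, 0.826 and 0.830 for the 2-library members. The difference was 0.0986 ± 0.0537 (SD, n = 4), positive in 4 of 4 libraries, with p = 0.125 in the exact sign-flip permutation test, two-sided (adjusted p = 0.125, both the smallest possible). The difference depended on replicate 4. With that library left out and members redefined as regions in 1 or 2 of the other 3, it was 0.0393. With the members as they are, but without the 2-library members that have a peak in replicate 4, the mean over replicates 1 to 3 was -0.0031 ± 0.046 (SD, n = 3; exact permutation p = 1), a setting chosen after seeing the data. Pairs without replicate 4 had medians of 0.736, 0.665 and 0.702, below the 0.761 of all promoters, and pairs with it 0.8289, 0.823 and 0.837. Starts with IgG peaks had medians of 0.871 and 0.875, above every class of member.

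**Figure D3:**
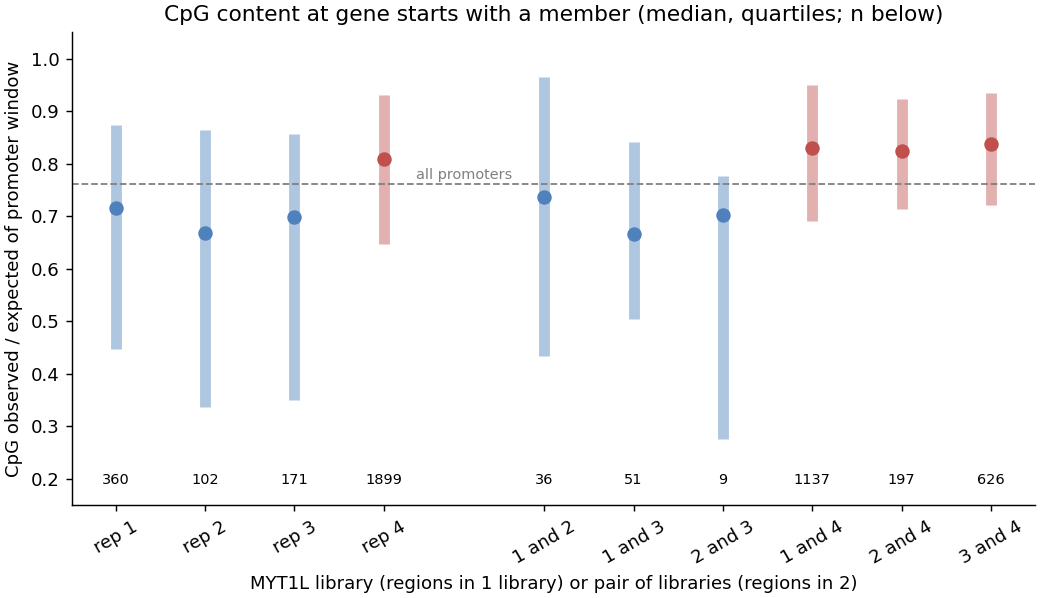
CpG observed over expected of the 300-base promoter window (y axis) at gene starts with a member, by library and by pair of libraries (x axis); points are medians, bars the quartiles, numbers the windows, and the dashed line the median of all promoters, 0.761. The 4 sets with replicate 4 have medians of 0.809 to 0.837, above the line, and the 6 others lie below it.

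The MYT1-family core was less frequent at members of both classes than at promoters in general. AAGTT, searched on both strands so that AACTT also counts, stood in 25.2% of the windows of 1-library members (639) and 25.7% of those of 2-library members (529), against 29.4% of all promoter windows. Regions in 3 and in 4 libraries had it in 23.8% and 20.9%. The longer form AAAGTTT, which contains the core, stood in 2.84% (72) and 3.02% (62), against 3.55% of all windows. In 2-library members without replicate 4 the share was 38.5% (37 of 96). By pair it was 41.7% (15 of 36) for replicates 1 and 2 and 41.2% (21 of 51) for 1 and 3. For replicates 2 and 3 it was 11.1% (1 of 9). In 1-library members without replicate 4 it was 27.65% (175 of 633), below that of all windows. The window is not the region itself, and sequence at the summits was not analysed here. Median CpG ratios were 0.791 at 1-library and 0.825 at 2-library members, against 0.761 for all promoters. The share of the core that base composition alone would give was not computed.

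Replicate 4 stood above the others in pileup and q at 1-library members, but its median fold was close to that of replicate 2. Fold is the authors' value for each peak, the pileup of fragments at the summit over the local background, each with 1 added. For 1-library members its median was 4.13 in replicate 1 (2.67 to 7.65), 4.91 in replicate 2 (3.51 to 8.13), 4.55 in replicate 3 (2.77 to 7.66) and 4.96 in replicate 4 (2.51 to 16.9). The median pileups behind these were 13, 8, 11 and 17 fragments. The median deposited -log10 q was 3.898, 3.55, 3.89 and 6.33, and 24.6%, 25.8%, 19.9% and 6.22% of the members had a value under 3, near the lowest value of 2 in the lists. Members of replicates 1 to 3 thus lay near the limit of detection far more often than those of replicate 4.

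Within 2-library members that it shared, replicate 4 had the higher fold in most. It was the higher in 84.7% of the 1505 members shared with replicate 1 (medians 6.38 and 4.75), in 68.9% of the 254 shared with replicate 2 (6.17 and 5.24) and in 80.7% of the 810 shared with replicate 3 (6.43 and 5.05). In the 3 pairs without it the medians were 4.58 and 5.06 for replicates 1 and 2, 4.38 and 4.55 for 1 and 3, and 5.12 and 4.59 for 2 and 3. The library named second was the higher in 69.4% of 62, 54.5% of 99 and 31.6% of 19 members, so replicate 2 was the higher over replicate 1 about as often as replicate 4 over replicate 2. The summits of both libraries lay a median of 109 to 141 bp apart over the 6 pairs, and within 200 bp of each other in 64.5% to 77.7% of members. Fold is set by each library's own background, so these medians compare deposited values and not amounts of MYT1L.

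**Figure D4:**
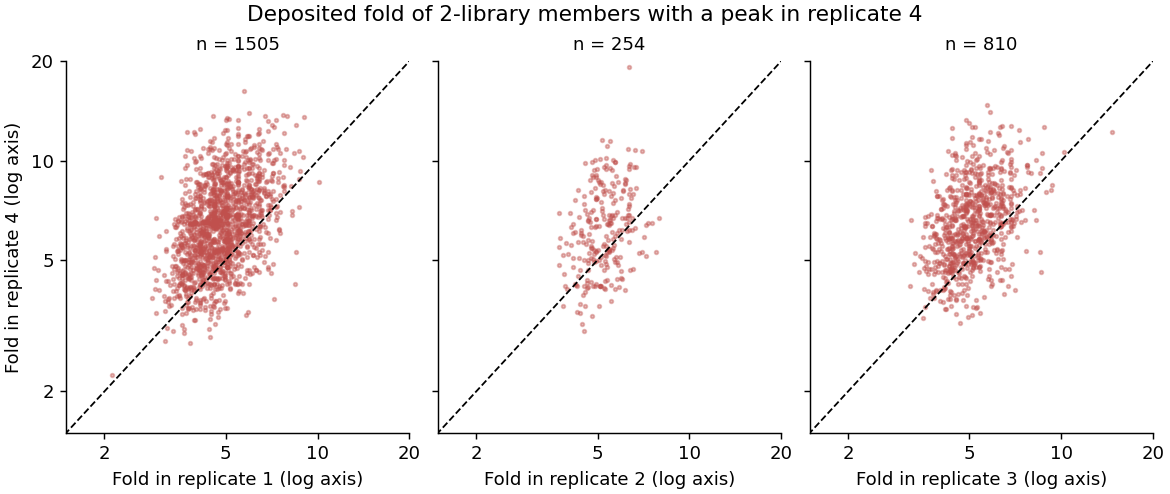
Deposited fold of each 2-library member in replicate 4 (y axis, log scale) against its fold in replicate 1, 2 or 3 (x axis, log scale); each point is 1 member and the dashed line marks equal folds. Points lie above the line in 84.7%, 68.9% and 80.7% of the 1505, 254 and 810 members.

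The 10 strongest 2-library members covered a gene end and had their higher fold in replicate 4, with CYP4F11 the exception to both. GOLGA3, a Golgi scaffold protein (chr12:132828497-132829372), had a fold of 5.73 in replicate 1 and 16.2 in replicate 4, with pileups of 19 and 74. CETN3, a centrosome protein (chr5:90409386-90410251), had 9.03 and 13.5. RSRC2 had 7.72 and 13.8, KLHL32 7.95 and 13.7, GNPDA2, an enzyme of amino sugar breakdown, 8.50 and 12.8, and the zinc-finger gene ZNF714 7.32 and 13.3, in the same libraries. GOLGA3, RSRC2, KLHL32, GNPDA2 and ZNF714 had their peaks over the start, and CETN3 over an end whose side the table does not give.

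With replicate 3 as the partner, CWC15, a spliceosome protein, had folds of 8.78 and 12.6, and METAP2, which removes the first methionine of new proteins, 10.2 and 10.6. CYP4F11, a cytochrome P450 (chr19:15933866-15934076), differed in both respects: its peak was higher in replicate 3, at 14.7, than in replicate 4, at 12.2, and it lay 791 bp from the start over a local background of 3.97 fragments. ZSCAN26 (chr6:28267049-28267371) had the widest gap, 6.33 in replicate 2 and 19.1 in replicate 4, with pileups of 8 and 47. In replicates that list no peak there the value is unknown, not 0. Such a difference in 1 locus has no replicate check.

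The best members of pairs without replicate 4 were weaker. They were the highest of 62, 99 and 19 members, against 1505, 254 and 810 in the pairs with it, and unequal set sizes affect a highest value. ZNF737 had folds of 4.97 and 8.86 in replicates 1 and 2 at 235 bp from its 3′ end. CCDC89 had 7.32 and 6.83 in replicates 1 and 3, and DEFA3, a neutrophil defensin, had 6.16 and 5.89 in replicates 2 and 3. DEFA3 and CYP4F11 belong to families of near-identical copies, and how reads that match several places were handled is not given in the sources used here.

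Among 1-library members, replicate 4, with 2703 members beside 757, 198 and 321 in replicates 1, 2 and 3, held the highest folds. WDR36, a factor of ribosome assembly (chr5:111092216-111092780), had a fold of 16.9 in replicate 4 on 47 fragments and no peak in the others. GSPT2, a translation termination factor on X, had 13.4, MRPS21, a mitochondrial ribosomal protein, 13.2 and NCOA4, the receptor for ferritin breakdown, 13.1. Their pileups of 28 to 47 fragments were well above the median of 17.

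Outside replicate 4 the highest folds of 1-library members ran from 7.49 to 8.13. In replicate 2 the members named were C2CD4B, with a fold of 8.13 on 12 fragments, DSPP, a protein of tooth dentin, with 7.90 on 14, the ion channel TRPM4 with 7.60 on 13 and LAMA3, a laminin of skin, with 7.49 on 10. Replicate 3 had DRD1, the D1 dopamine receptor, with 7.66 on 16 fragments at 408 bp from the start. Replicate 1 had KLK7, a protease of skin, with 7.65 on 31 fragments at 601 bp. C2CD4B covered the start, and the other five lay 408 to 601 bp from an end. Of all 1-library members without replicate 4, 18.7% covered an end.

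Of all 20037 protein-coding genes, 19.5% (3900) had a 1-library member within 1000 bp of an end, 15.5% (3106) a 2-library member and 38.9% (7796) a region in 3 or 4 libraries. In 1303 genes, 6.50%, a 1-library member came from replicates 1 to 3. Counts for gene lists are read against these shares, without a test. The lists were written with earlier results of these data known, a gene can count in several classes, and neighbouring genes can share a region: 449 1-library and 450 2-library members were near 2 or more genes.

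Notch pathway genes had 1-library members often and 2-library members about as often as all genes. Of 37 genes 17 (45.9%) had a 1-library member, 5 (13.5%) a 2-library member and 15 (40.5%) a region in 3 or 4 libraries. All but 3 of the 17 had theirs only in replicate 4 (3 of 37 is 8.11%, beside 6.50% of all genes). JAG1, a ligand, had folds of 4.38 and 7.54 in replicates 1 and 4 over its start, with pileups of 13 and 34, and a further member in replicate 4 at 4.52. DTX1, an E3 ligase that modulates Notch, had 3.98 and 7.71, and PSENEN, a gamma-secretase subunit, 3.44 and 4.02, in the same libraries.

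Members at genes of the HES family, which includes the pathway's effector repressors, had folds from 2.78 at HES5 to 6.63 at HES6, the latter in replicate 4 over its start. HES7 had 3.89 and 4.57 in replicates 1 and 4 over its start and, 904 bp from its 3′ end, 3.79 and 4.00 in replicates 3 and 4. HES2 had 3.85 and 3.62 in replicates 2 and 4 at 653 bp from the start. HES4 had 5.62 in replicate 4 over its start and weaker members near its 3′ end, of 3.48 in replicate 1 and 3.07 in replicate 4. HES5 had 2.78 on 20 fragments in replicate 4, and the secretase gene APH1A 7.99. HES5 was thus near the lowest fold of any 1-library member, 2.51.

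Genes of the ventral forebrain, where cortical interneurons arise, had 1-library members most often of the 15 lists. Of 40 genes 20 (50%) had one, 6 (15%) a 2-library member and 9 (22.5%) a region in 3 or 4 libraries. In 6 genes (15%) a 1-library member came from replicates 1 to 3. CALB1, the calcium buffer calbindin, had folds of 5.04 and 6.86 in replicates 1 and 4, and SATB1, a chromatin organizer of maturing interneurons, 4.72 and 6.33. SIX3, a forebrain homeobox gene, had 3.905 and 3.53.

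In replicates 3 and 4, DLX6, a homeobox gene of GABAergic neurons, had folds of 5.41 and 4.64 at 629 bp from its start. ERBB4, the neuregulin receptor of interneurons, had 6.29 and 4.34 at 11 bp. Both were higher in replicate 3, unlike 80.7% of the members of that pair. The 1-library genes included DLX1, DLX2, DLX5, LHX6, SLC32A1 and NPY with members in replicate 4. Of these, DLX2 also had a region in 3 or 4 libraries. GAD2, an enzyme of GABA synthesis, had separate members in replicate 2 (5.14) and replicate 4 (6.10). SST, the neuropeptide somatostatin, had a member in replicate 3 alone with a fold of 4.88, and GSX2 in replicate 1 alone with 4.90.

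Genes of neuronal transcription and the synapse had 2-library members at 14 of 57 genes (24.6%), against 15.5% of all genes, and 1-library members at 13 (22.8%). Fewer than among all genes, 14 (24.6%), had a region in 3 or 4 libraries. NFIA, a transcription factor of neural progenitors and glia, had the highest folds named from this list, 6.69 in replicate 2 and 9.58 in replicate 4. DLG4, the postsynaptic scaffold PSD-95, had 5.56 and 6.06 in the same pair. GRIN1, the obligatory NMDA receptor subunit, had 3.59 and 4.22 in replicates 1 and 4, and the transcription factor gene NEUROD6 5.04 and 5.60. In 2-library members without replicate 4, CACNA1A, a calcium channel of nerve terminals, had 5.38 and 4.51 in replicates 2 and 3. NEUROG1, a proneural factor, had 4.11 and 4.83 in replicates 1 and 3. A separate 1-library member of replicate 4, with a fold of 5.20, lay 432 bp from the NEUROG1 start.

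Of 18 genes of the MYT1 family and its corepressors, 4 had a 1-library member (22.2%), 2 a 2-library member (11.1%) and 8 a region in 3 or 4 libraries (44.4%). REST, a repressor of neuronal genes, had 2 members at its start: folds of 5.56 and 6.12 in replicates 3 and 4 (chr4:56907683-56908069) and of 4.65 and 4.89 in replicates 2 and 4 (chr4:56908403-56908701). The 1-library members of this list were all of replicate 4. Folds were 7.05 at SIN3B, the corepressor scaffold, and 5.85 at HDAC1, a histone deacetylase. MYT1 itself had 3.69. SAP30, a SIN3 subunit, had 3.29 and also a region in 3 or 4 libraries.

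**Figure D5:**
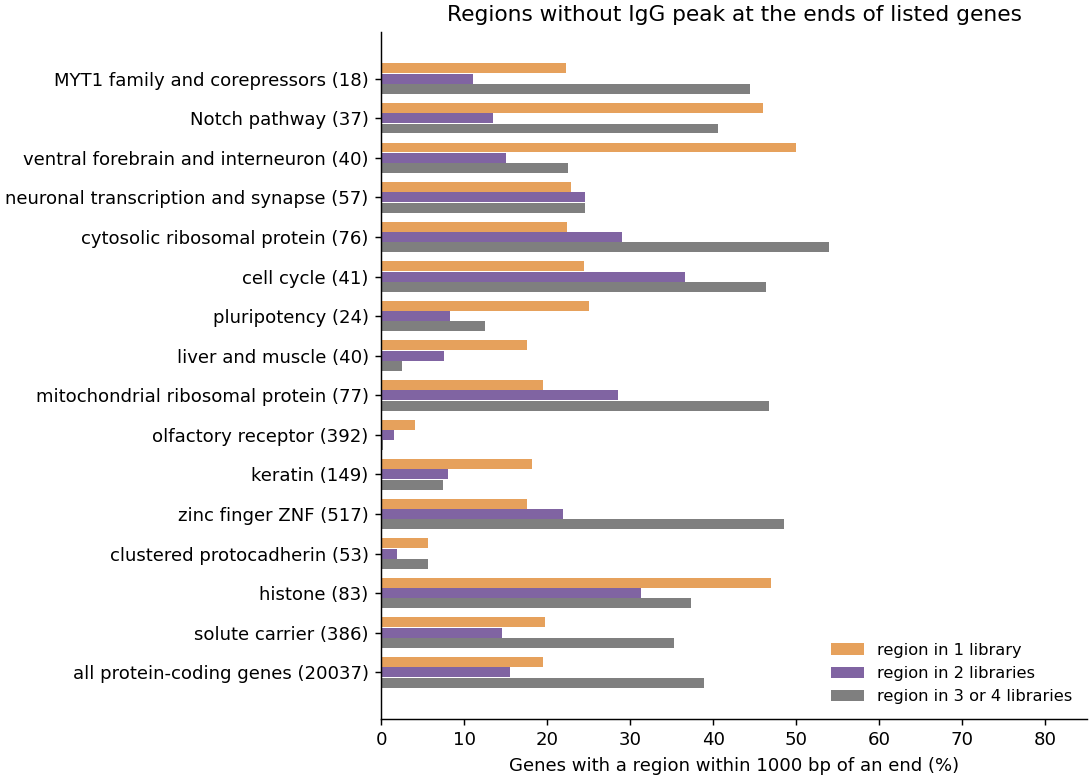
Share of the genes of each list (x axis, percent; number of genes in parentheses) with a region without an IgG peak within 1000 bp of an end, in 1 library, in 2 and in 3 or 4. Notch, ventral forebrain and histone genes have 1-library regions at 45.9% to 50% of genes, against 19.5% of all genes, and olfactory receptor genes at 4.08%.

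Lists of genes of other cell types served as a comparison. Olfactory receptor genes had members less often than all genes, while keratin, liver and muscle genes had 1-library members about as often. Pluripotency genes had them at 25% of 24 genes, beside 19.5% of all genes. Within 5000 bp the shares were 33.3% and 34.1%. Of 392 olfactory receptor genes 16 (4.08%) had a 1-library member, 6 (1.53%) a 2-library member and 1 (0.255%) a region in 3 or 4 libraries. Keratin and keratin-associated genes had 27 (18.1%), 12 (8.05%) and 11 (7.38%) of 149, and liver and muscle genes 7 (17.5%), 3 (7.50%) and 1 (2.50%) of 40. In these lists replicates 1 to 3 gave a large part of the 1-library genes: 12 of the 16 olfactory, 20 of the 27 keratin and 5 of the 7 liver and muscle genes. For olfactory receptor genes that is 3.06% of the list, for keratin genes 13.4% and for liver and muscle genes 12.5%, against 6.50% of all genes. Pluripotency genes had 6 (25%), 2 (8.33%) and 3 (12.5%) of 24. For 5 of the 6 a 1-library member came from replicates 1 to 3, which is 20.8% of the list. Among them were SOX2 with a fold of 6.15 and POU5F1 with 3.82, both members in replicate 3 alone. The SOX2 member lay 813 bp from the start, and SOX2 also had a region in 3 or 4 libraries.

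Cell cycle, ribosomal protein and zinc-finger genes had 2-library members more often than all genes. Of 41 cell cycle genes 15 (36.6%) had one, of 77 mitochondrial ribosomal proteins 22 (28.6%), of 76 cytosolic ribosomal proteins 22 (28.9%) and of 517 ZNF zinc-finger genes 113 (21.9%). Regions in 3 or 4 libraries stood at 46.3%, 46.8%, 53.9% and 48.5% of these lists. MCM6, a subunit of the replicative helicase, had folds of 5.46 and 10.3 in replicates 1 and 4 over its start, and TOP2A, a topoisomerase of mitosis, 5.83 and 8.14 in replicates 3 and 4. Histone genes had both classes often, 39 of 83 (47.0%) with a 1-library and 26 (31.3%) with a 2-library member, but many of these are near-identical copies. Solute carrier genes, with 19.7% and 14.5% of 386, were near all genes, and clustered protocadherin genes, with 3 and 1 of 53, were below them.

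For most genes with a member it was the only kind of region there. Of the 6516 genes with either class (32.5% of all), 5638 had no region in 3 or 4 libraries within 1000 bp of an end, 2790 with 1-library members alone, 2380 with 2-library members alone and 468 with both. A region in 3 or 4 libraries was present at 16.5% (642) of the genes with a 1-library member. It was present at 8.31% (258) of those with a 2-library member and at 38.9% (7796) of all protein-coding genes. Joined regions cannot overlap, so a gene end covered by a region of 3 or 4 libraries leaves less room for members. The nearest region in 3 or 4 libraries lay within 1000 bp of 9.75% of the 1-library and 4.26% of the 2-library members. Median distances were 45.7 and 48.5 kb. Regions in 3 or 4 libraries that overlap an IgG peak counted for this distance but not for the gene counts. In 1053 genes there were 2 or more members, and at most 4.

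The limit of 1000 bp did not fall at a gap in the data. The last inside were PIF1 at 1000 bp (replicates 1 and 4, mean fold 4.996) and EIF4G3 1 bp nearer (replicate 3, fold 4.549). ACOT4 (replicate 3, 4.55) and CARMIL2 (replicate 4, 3.41) were the first outside, each by 1 bp. In the last 200 bp inside the limit there were 342 1-library and 103 2-library members, and in the next 200 bp 304 and 82 regions that did not count.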

How the data were processed

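Peak lists of 4 MYT1L and 2 IgG CUT&RUN libraries were used, grouped by sample title. Per the submitters' processing notes MACS2 and hg38 were used, without role or version; aligner, filters, thresholds and control library are not given in the sources used here. Per peak the authors deposited a fold enrichment (a ratio), a −log10 p, a −log10 q, a score that is 10 times the −log10 q, and a summit offset. Each list names 1 sample, so peaks appear to have been called per library.

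Peaks were joined by 1 bp of overlap with Python 3.11.15, numpy 2.4.6, pandas 2.3.3 and scipy 1.17.1, and the distance is the gap from region to gene end. Pileups were recovered as whole numbers that give the deposited fold and −log10 p within 0.0005 for −log10 p up to 200, which succeeded for 99.953% to 100% of peaks. Total reads are unknown. The IgG background was 0.329 and 0.190 fragments. Joining, pileups and thinning were tested on simulated data. Strand came from the RefSeq promoter table, which covers 15843 of 20037 genes (79.1%); the window nearest to the gene's 5′ end was used, and for 94.3% of 4587 members at starts it began within 1000 bp of it. Each member was assigned to the nearest gene end, with ties between a start and a 3′ end given to the start.

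Only the share at starts and the CpG ratio were tested, each by an exact sign-flip permutation test over libraries. The rule and all values from the same lists are described without a test; Dixon's ratio was used only to screen library values for a gap. Named were the 10 members of each class with the highest fold (1-library, at most 4 per library), the best member of each pair of libraries, up to 6 genes of the Notch, ventral forebrain, neuronal and MYT1 lists (2-library first, then alphabetical), and those next to 1000 bp. After values were seen, printed windows were required to share bases with the region, and other genes named (HES4, HES5, HES6, DLX1, DLX2, DLX5, LHX6, GAD2, SLC32A1, NPY, SST, GSX2, SOX2, POU5F1, MCM6 and TOP2A) were picked from their lists. Some genes that this rule names are not reported here. The members and lists were chosen with earlier results of these data known. Alternatives were other distances, the summit in place of the region, stricter q, equal numbers of peaks, stricter overlap, no IgG filter and leaving out each library.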

Additional observations from a re-analysis of the deposited data

Results flagged for a closer look

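Groups of 4 library values, 22 in all, were screened for a library set apart by a wide gap (Dixon's ratio), which picks about 1 of 20 groups by chance. In 3 groups, all on 1-library members, MYT1L replicate 4 was set apart. The values come from the lists and distances that chose the members, so they are a description and not a test. The share of its 1-library regions at gene ends was 24.07%, with the others at 6.782% to 8.34%. The share of its 1-library members that covered the gene end was 40.21%, with the others at 18.18% to 19.94%. The median deposited −log10 q of its 1-library members was 6.334, with the others at 3.551 to 3.898. The 3 values come from the same regions and are not independent. The share at gene ends stayed highest in replicate 4 under every alternative that kept that library. When each list was reduced to the same number of best peaks it was 68.7% beside 13.2%, 12.9% and 16.3% in replicates 1 to 3. With replicate 4 left out, the shares of replicates 1 to 3 rose to 18.1%, 17.46% and 19%.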

How the results depend on the processing

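No paired analysis was possible because the members come from the MYT1L lists alone, and the IgG libraries that share replicate numbers 1 and 2 give no value for them. Of 13 alternatives, the number of 1-library members stayed within 1.5 times in 13 (2876 to 5165) and that of 2-library members in 12 (2367 to 4406). The share of regions at gene ends moved with a −log10 q of at least 5, to 30.29% (1-library) and 55.35% (2-library), and with equal numbers of top peaks, to 23.69% and 51.83%. Leaving out each library, where members have a peak in 1 or 2 of the others, gave 33.53% to 49.34% for 2-library regions (49.34% without MYT1L replicate 1, 45.44% without replicate 3, 44.61% without replicate 4) and 2756 to 4406 2-library members (4406 without replicate 3). The part of the members with a peak in replicate 4 became 72.16% (1-library) and 94.38% (2-library) within 500 bp, 62.94% and 92.25% within 2000 bp, 87.16% and 98.21% at the stricter q, 51.22% and 86.52% with equal peak numbers, 63.64% (1-library) with a stricter overlap of peaks, and 67.9% to 86.01% and 93.43% to 99.19% without each library. The difference in starts was positive in 14 of 14 alternatives (5.592 to 24.29 percentage points; 10.07 with equal peak numbers). That in CpG was positive in 13 of 14 (0.0393 without MYT1L replicate 4, 0.0437 with equal peak numbers) and turned to -0.003128 for 2-library members without replicate 4, an alternative chosen after seeing the data; the cause was not tested. Within 5000 bp, 20 of 32 list counts stayed within 1.5 times. Ranking by q kept 5 of 10 named 2-library and 4 of 10 named 1-library members. Median pileups of 8 to 13 fragments at the 1-library members of replicates 1 to 3 limit the precision of their fold.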

Other observations

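Members were spread unevenly over chromosomes. Over all chromosomes there were 19.9 1-library members, 13.7 2-library members and 33.6 regions in 3 or 4 libraries at gene ends per 100 protein-coding genes. The X chromosome had the most 1-library members per gene, 30.5 per 100 (259 members, 185 of them of replicate 4), 14.7 2-library members, and 13.0 regions in 3 or 4 libraries. Chromosome 19, rich in zinc-finger genes, came next with 27.9 (405 members, 291 of replicate 4), 16.5 and 23.6. Chromosomes 16, 22 and 17 had 24.8, 24.6 and 23.1 1-library members per 100 genes, and chromosome 18 had 14.1. These counts were looked at after seeing the data and were not tested.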
